A study of Drosophila melanogaster with 32 samples.

Results

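Expression was compared between females that evolved under promiscuity and females that evolved under monogamy, when both had mated with monogamous males. The comparison was chosen from the labels by female and male mating regime, and it uses 16 of the 32 arrays of the series. All flies descend from the outbred laboratory population LHM of Drosophila melanogaster, from which 8 replicate populations were kept for 46 generations, either with a single mating in each generation (Mono1 to Mono4) or under the standard mating protocol (Prom1 to Prom4). The group P.M holds females of Prom1 to Prom4 mated to males of the Mono population of the same number. The group M.M holds females of Mono1 to Mono4 mated to males of their own population. Each group has 8 arrays, from 4 female populations with 1 array in each of 2 batches, and RNA came from whole adult females frozen 6 h after mating. M.M females met males of their own population and P.M females met males of another, so the female's regime and a foreign mate cannot be told apart within these 16 arrays. The other 16 arrays, promiscuous females (P.P) and monogamous females (M.P) mated to promiscuous males, were used only where the mate's part is described. Unmated females were not analysed here.

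Mating changes a Drosophila female through sperm and through seminal proteins such as sex peptide, which raise egg laying, lower receptivity and alter feeding, digestion and immune gene expression. Enforced monogamy removes competition among males and much of the conflict between the sexes over mating. Crossing both kinds of females to the same kind of male asks how far the females' own history shows in their expression after mating.

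The values are log2 expression levels, so a difference of 1 is 2-fold, and each population's value is the mean of its 2 arrays. The female population was the replicate, with 4 in each group. Array medians lay between 5.41 and 5.50. Arrays of 1 cross correlated at 0.996 to 0.998 and arrays of different crosses in the same batch at 0.994 to 0.997. The tissue was as labelled. Yolk protein genes lay at 14.49 to 14.79 in P.M arrays and 14.34 to 14.76 in M.M arrays, and eggshell genes lay at 11.69 to 13.92 in P.M arrays and 12.53 to 13.93 in M.M arrays. All 6 accessory gland markers and all 7 testis markers stayed low, with highest values of 4.96 and 5.16 in P.M arrays and 4.78 and 5.15 in M.M arrays. RNA integrity was read from the actin control, whose 3' probe set minus its 5' probe set was 2.34 ± 0.10 in P.M and 2.42 ± 0.18 in M.M (SD, n = 4 each; exact permutation test, two-sided, p = 0.543). The GAPDH and eIF-4a controls were also lower in P.M, by −0.06 and −0.07 (exact permutation tests, two-sided, p = 0.143 and 0.514). The actin measure was larger in batch 2 than in batch 1 by 0.99, in 8 of 8 crosses, and every population held both batches equally.

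No gene passed the test between P.M and M.M. In limma's moderated test, 0 of 18769 probe sets reached an adjusted p of 0.05 (0% called), and the lowest adjusted p was 0.381. At an unadjusted p under 0.05 there were 1478 probe sets, of which 867 were higher and 611 lower in P.M. Counted as genes, 1060 of 11981 had an unadjusted p under 0.05 (8.85%). In fits on a single batch, 8.79% of probe sets had such a p in batch 1 and 4.75% in batch 2. The share in batch 2 was thus no larger than the nominal 5%. A fit on the 16 arrays with the female population as a random block called 6 probe sets (0.032%). These were nom, CG8560 and Elal, higher in P.M, and Mal-B1, Zip102B and Rim2, lower in P.M, with adjusted p between 0.0384 and 0.0407. That fit used 1 correlation between arrays of a population, 0.104, for all probe sets. It thus counted the 2 arrays of a population nearly as separate replicates, and arrays taken as independent also gave 6. In Zip102B the populations of a regime differed (moderated F test, adjusted p = 0.0038), so its call may overstate the replication. The values below therefore describe the genes nearest to a difference. None of them was called in the fit on population means.

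The leading genes were the 12 of lowest p on either side, and these 24 had adjusted p of 0.381 to 0.5 in limma. In every one of them the 4 P.M populations lay on one side of the 4 M.M populations. Over all genes the P.M populations were all above the M.M populations in 365 genes (3.05%) and all below them in 251 (2.09%). Because low p chose these 24, their separation adds no support. All 24 had the same sign in both batches, and 19 were larger in batch 1, the batch with the smaller 3' to 5' difference. The part of RNA integrity in these sizes was not tested.

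**Figure D1:**
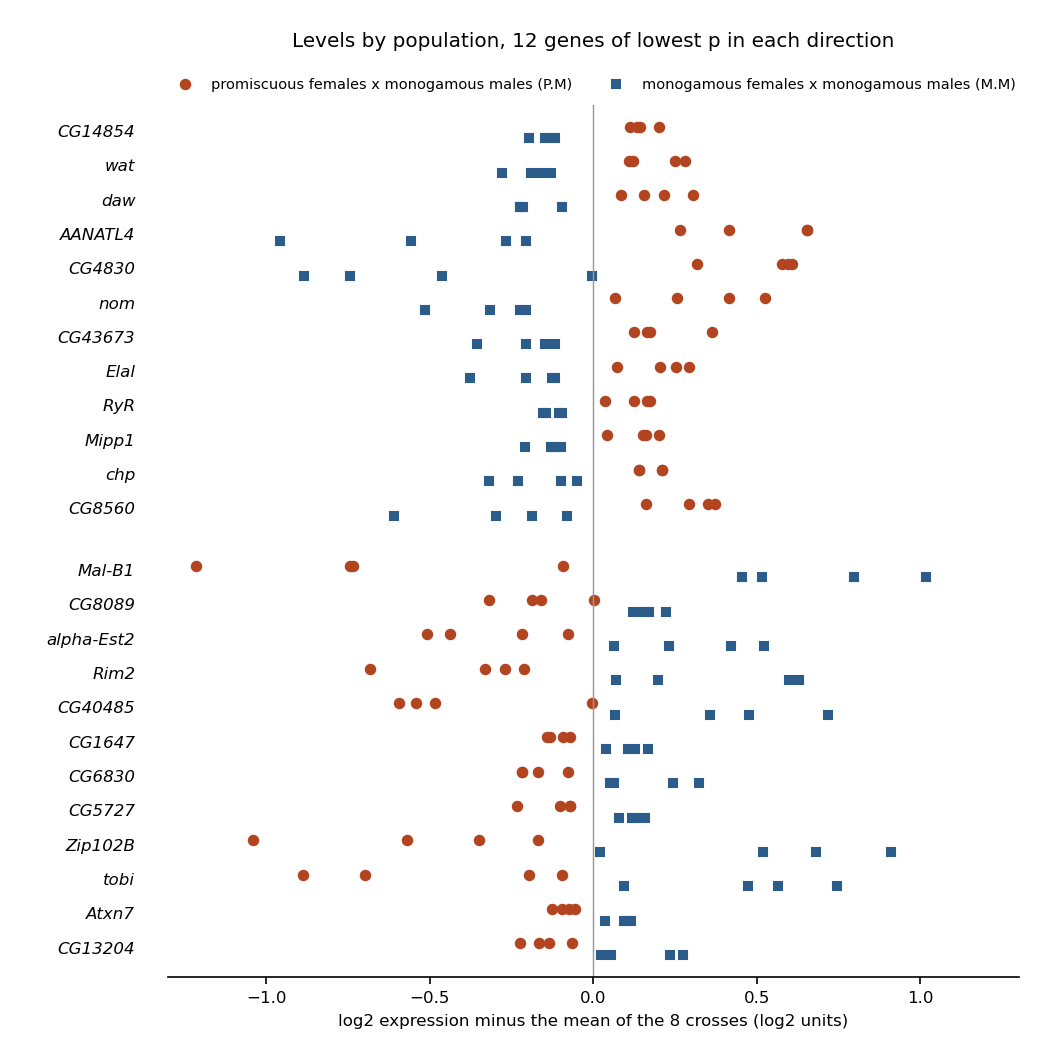
Log2 expression of the 24 leading genes, 12 per direction, drawn as each population's value minus the mean of the 8 crosses. Circles are the 4 P.M populations and squares, just below them, the 4 M.M populations. The widest gap is in Mal-B1 (−1.39), and CG1647 and Atxn7 have narrow gaps (−0.22 and −0.17) with little spread.

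Among the genes lower in promiscuous females, the largest difference was in a gene for sugar digestion. Mal-B1, a maltase that splits disaccharides, had log2 levels of 6.96, 6.31, 5.84 and 6.32 in P.M populations 1 to 4, against 7.51, 8.07, 7.85 and 7.57 in M.M populations 1 to 4. All 4 P.M values were below the lowest M.M value. The difference was −1.39 ± 0.22 (SE), a 2.62-fold lower level in P.M, with −1.72 in batch 1 and −1.06 in batch 2 (limma adjusted p = 0.381).

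The gene tobi encodes an alpha-glucosidase known to respond to dietary protein and to insulin and glucagon-like hormones. Its levels were 9.37, 9.18, 9.87 and 9.97 in P.M and 10.16, 10.63, 10.54 and 10.81 in M.M. The groups did not overlap, and the difference was −0.94 ± 0.19 (adjusted p = 0.404).

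Zip102B, on chromosome 4, encodes a ZIP family zinc transporter. It had levels of 7.65, 6.78, 7.25 and 7.47 in P.M, against 7.84, 8.73, 8.34 and 8.50 in M.M. M.M1 was the lowest of the M.M populations and P.M1 the highest of the P.M populations, and these came close to each other. The difference was −1.06 ± 0.22 (adjusted p = 0.404).

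Rim2 encodes a mitochondrial carrier of pyrimidine nucleotides. Its levels were 7.26, 6.79, 7.14 and 7.20 in P.M and 8.07, 8.10, 7.67 and 7.54 in M.M, a difference of −0.75 ± 0.15 that was equal in the 2 batches. The esterase gene alpha-Est2 had 6.42, 6.85, 6.71 and 6.49 in P.M and 6.99, 7.16, 7.35 and 7.45 in M.M, a difference of −0.62 ± 0.12. Both genes were thus lower in every P.M population than in any M.M population.

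Smaller differences with little spread were seen in CG8089 (−0.33 ± 0.06), CG6830 (−0.34 ± 0.07), CG13204 (−0.29 ± 0.07), CG5727 (−0.24 ± 0.05) and CG1647 (−0.22 ± 0.04). Atxn7, a component of the SAGA chromatin-modifying complex, differed by −0.17 ± 0.04, with P.M levels of 8.63 to 8.70 and M.M levels of 8.79 to 8.87. The remaining gene of these 12, CG40485, lies in a group of neighbours on the X chromosome that is described further on.

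Among the genes higher in promiscuous females, the largest differences with low p were in CG4830 and AANATL4. CG4830 had 9.43, 9.46, 9.45 and 9.17 in P.M, against 8.11, 8.39, 8.85 and 7.97 in M.M. The P.M values were close together and the M.M values ranged over 0.88. The difference was +1.05 ± 0.17, with +1.46 in batch 1 and +0.63 in batch 2 (adjusted p = 0.381).

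AANATL4 is a relative of the arylalkylamine N-acetyltransferases, which acetylate amines such as dopamine and octopamine in insects. It had 8.05, 8.05, 7.81 and 7.66 in P.M and 7.13, 6.84, 7.19 and 6.44 in M.M, a difference of +0.99 ± 0.16. Every P.M population was above every M.M population.

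The activin-like ligand gene daw (dawdle) is known to respond to dietary sugar and to restrain carbohydrate-digesting enzymes. Its levels were 8.18, 8.24, 8.33 and 8.11 in P.M and 7.80, 7.80, 7.93 and 7.81 in M.M. The difference was +0.38 ± 0.06 in each batch alike (adjusted p = 0.381). The gene wat (waterproof), a fatty acyl-CoA reductase gene whose product acts in the developing airways, had 9.30, 9.16, 9.17 and 9.33 in P.M and 8.86, 8.92, 8.89 and 8.77 in M.M. Its difference was +0.38 ± 0.06, and it was +0.56 in batch 1 and +0.21 in batch 2. Among the leading genes, the probe sets of daw, Mipp1 and Atxn7 have names ending in _s_at, and those of Elal, RyR and CG13204 in _a_at. Both endings mark probe sets that match several transcripts. Whether they also match other genes was not tested.

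CG8560 had 11.14, 11.08, 10.95 and 11.16 in P.M, against 10.18, 10.71, 10.49 and 10.60 in M.M (+0.59 ± 0.11). The gene nom had 7.39, 7.58, 7.74 and 7.85 in P.M, against 7.10, 7.01, 6.81 and 7.12 in M.M (+0.63 ± 0.10). Both were higher in every P.M population. CG43673, on the X chromosome, differed by +0.42 ± 0.07 and Elal, an elastin-like gene, by +0.41 ± 0.07.

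The other 4 genes higher in P.M had small differences. The photoreceptor adhesion protein gene chp (chaoptin) differed by +0.35 ± 0.06, with 8.95 to 9.02 in P.M and 8.49 to 8.76 in M.M. CG14854 differed by +0.30 ± 0.04 at levels of 4.14 to 4.54, near the low end of the arrays' range. Mipp1, an inositol polyphosphate phosphatase, differed by +0.27 ± 0.05. RyR, the ryanodine receptor that releases calcium inside muscle and nerve cells, differed by +0.25 ± 0.04.

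Differences of at least 1 log2 unit were few. They were found in 7 genes higher in P.M (0.0584% of 11981) and in 4 genes lower in P.M (0.0334%). Most of these had a wide spread among populations. CG32751, placed here with genes of the spermatheca and female tract, had 7.46, 6.17, 8.88 and 8.20 in P.M, against 6.65, 3.87, 5.41 and 6.42 in M.M (+2.09 ± 0.70, adjusted p = 0.551). The low value of M.M2 is far below the other M.M populations, and P.M2 overlaps the M.M range.

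CG31681 of the same list went the other way, with 9.37, 7.65, 9.74 and 8.69 in P.M against 10.64, 10.86, 9.95 and 9.51 in M.M (−1.38 ± 0.45). CG17234 had 8.85, 9.02, 6.18 and 7.71 in P.M against 8.04, 4.89, 5.57 and 8.25 in M.M (+1.25 ± 0.87), and the groups overlapped widely. CG2993 had 6.22, 5.74, 5.86 and 6.55 in P.M against 6.32, 4.55, 4.56 and 4.66 in M.M (+1.07 ± 0.38). Only M.M1 reached the P.M levels in CG2993. Cyp12d1-d, a cytochrome P450 with a close neighbouring copy that the probe set may not tell apart, had +1.29 ± 1.00. Its populations are described with those that differ within a regime.

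Of the 34 gene lists, the maltases and amylases had the median furthest from 0. Maltases act in the gut on maltose and sucrose, and in mated females the gut enlarges as feeding increases. Amy-p and Amy-d had no named probe set here. Of the 12 genes that had one, 10 were lower and 2 higher in P.M, with a median difference of −0.52. Over all 11981 genes 50.9% were higher and the median was 0.00. An unadjusted p under 0.05 was reached by 6 of the 12, none passed after adjustment, and 2 of the 12 (Mal-B1 and tobi) had groups that did not overlap, both lower in P.M. Over all genes these shares were 8.85% for the unadjusted p and 2.09% for groups apart with P.M lower. An earlier account of these data already pointed to these genes, so the list is no independent evidence of its direction.

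Several Mal-A genes, which are neighbours on chromosome arm 2R, shared the populations at their extremes. Mal-A1 had 11.12, 11.10, 12.05 and 11.59 in P.M, against 11.47, 12.53, 12.62 and 12.06 in M.M (−0.70 ± 0.28). P.M3 was the highest P.M population and M.M1 the lowest M.M population. The same held in Mal-A2, Mal-A3, Mal-A4, Mal-A6 and Mal-A7, whose differences were −0.57, −0.45, −0.47, −1.25 and −0.79. In Mal-A6 the P.M levels were 8.82, 8.96, 11.14 and 9.76 and the M.M levels 9.09, 11.75, 11.87 and 10.95, so M.M1 lay among the low P.M populations and P.M3 among the high M.M ones.

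Not every member followed. Mal-A5 was higher in P.M by 0.15 ± 0.12, with 10.48, 10.46, 10.03 and 10.49 in P.M and 10.48, 10.14, 10.16 and 10.09 in M.M. Its P.M3 and M.M1 values were again the exceptions, now in the opposite direction. Mal-A8 differed by −0.15 ± 0.35 and Mal-B2 by −0.27 ± 0.11. Amyrel, an amylase relative, differed by +0.17 ± 0.23. The mean over the 12 genes was 8.42, 8.23, 8.91 and 8.73 in P.M and 8.75, 9.37, 9.25 and 9.15 in M.M, so the groups overlapped at P.M3 and M.M1. The populations of a regime differed from each other in 5 of the 12 genes by the moderated F test, against 3.45% of all genes.

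**Figure D2:**
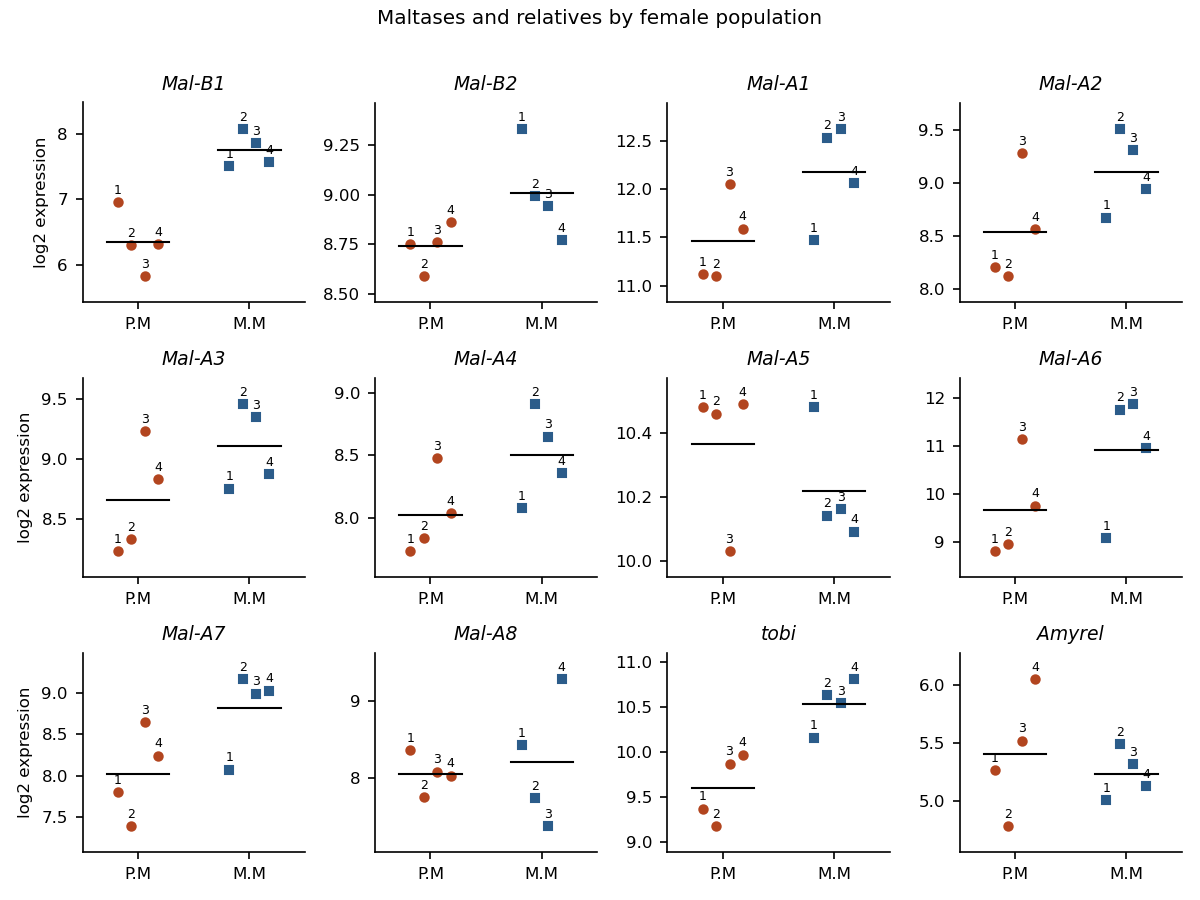
Log2 expression of 10 maltases, tobi and Amyrel by female population, with P.M (circles) left and M.M (squares) right in each panel. Digits are population numbers and lines the group means of 4 populations, and axes differ between panels. The groups are apart in Mal-B1 and tobi, while population 3 of P.M and population 1 of M.M overlap in most Mal-A genes.

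Other lists of digestion and metabolism lay near 0. Among digestive proteases, 18 of 26 were higher in P.M (median +0.10). The serine proteases Jon25Bii and Jon25Bi differed by +0.38 ± 0.11 and +0.33 ± 0.11, and Ser7 by +0.15 ± 0.06. In the list of sugar transport, storage and sensing, 16 of 21 were higher (median +0.05), led by the sugar transporter sut2 (+0.32 ± 0.08) and by Mondo, a glucose-sensing transcription factor (+0.11 ± 0.05). In lipid synthesis and storage, 17 of 27 were higher (median +0.02), with Apoltp, a lipoprotein of lipid transfer, at +0.30 ± 0.09. In the same list the desaturase gene Desat1 was at −0.15 ± 0.06 and the lipid droplet gene Lsd-2 at −0.16 ± 0.07. Insulin and TOR signalling had 12 of 17 genes lower in P.M (median −0.03). The insulin receptor gene InR had 7.81, 8.02, 8.05 and 8.24 in P.M and 8.42, 8.37, 8.30 and 8.24 in M.M (−0.30 ± 0.09), and the relaxin-like peptide gene Ilp8 was at −0.22 ± 0.06. Oxidative phosphorylation had 42 of 64 higher (median +0.02) and cytosolic ribosomal proteins 24 of 41 (median +0.01).

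Genes of egg production gave small differences of both signs. In the list of germline and oogenesis, 33 of 41 genes were lower in P.M (median −0.05), and 8 had an unadjusted p under 0.05, of which 7 were lower. Over all genes 8.85% had such a p, 648 of them higher and 412 lower. They included CycB, a mitotic cyclin (−0.13 ± 0.05), swa, which helps localise bcd mRNA (−0.10 ± 0.04), CycE, the G1 to S cyclin (−0.19 ± 0.07), and piwi, which silences transposons (−0.27 ± 0.10). The 41 genes averaged 9.49 to 9.56 in the P.M populations and 9.55 to 9.62 in the M.M populations, so the groups met. Their median difference was −0.09 in batch 1 and −0.01 in batch 2. In yolk and eggshell genes, 14 of 22 were higher (median +0.06). The vitelline membrane gene Vm32E had 10.86, 11.02, 10.66 and 10.35 in P.M and 10.15, 10.33, 10.12 and 10.14 in M.M (+0.54 ± 0.13). Yolk protein gene Yp2 was at +0.12 ± 0.05. In whole flies, fewer cells of a type and less RNA per cell cannot be told apart, and this holds for every list here.

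Genes of ovulation, sex peptide response and the female tract were mostly near 0 as well. Ovulation and octopamine genes were higher in 13 of 18 (median +0.04), with the neprilysin peptidases Nep1 at +0.16 ± 0.06 and Nep2 at +0.23 ± 0.10. The median of that list was +0.11 in batch 1 and −0.02 in batch 2. In the sex peptide response list, 13 of 23 were higher (median +0.02). The sex peptide receptor gene SPR had 7.53, 6.74, 7.81 and 7.61 in P.M and 7.58, 5.86, 6.55 and 6.90 in M.M (+0.70 ± 0.35). Its second probe set differed by −0.08, so the 2 probe sets disagreed. The sex determination gene fru was at +0.21 ± 0.05 in its brightest probe set and at −0.08 to 0.03 in its other 6 probe sets. In the list of the spermatheca and female tract, 14 of 20 were higher (median +0.10), including the clotting factor gene fon at +0.25 ± 0.05 and the serine protease gene Ser12 at +0.40 ± 0.15. The range in that list was −1.38 to +2.09, and populations of a regime differed in 6 of its 20 genes, against 3.45% of all genes.

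Immune effector peptides were lower in P.M, without a called difference. All 9 Bomanins and immune-induced peptides, the short secreted peptides of the Toll response, were lower in P.M (median −0.22), and none had an unadjusted p under 0.05. Their mean was 10.54, 9.77, 9.70 and 10.05 in P.M and 10.88, 10.07, 9.71 and 10.25 in M.M. The values overlapped widely, and within each number the P.M value was the lower one. Without M.M1, and with P.M1 of the same number kept, the median was +0.03. P.M1 and M.M1 had the highest means of their groups, and leaving out both was not tried. The sign of the median thus depended on M.M1 when numbers were not matched. Antimicrobial peptides were lower in 10 of 12 (median −0.11), again with none at an unadjusted p under 0.05. Their median was −0.01 without M.M1, again with P.M1 kept. In immune recognition and signalling, 19 of 38 were higher (median 0.00). The antiviral secreted factor gene Vago was at +0.31 ± 0.07 and the Toll pathway protease gene psh at +0.20 ± 0.06 there. Turandot and heat shock genes were lower in 9 of 13 (median −0.04), and hemocyte genes were higher in 7 of 13 (median +0.06), with basement membrane collagens vkg and Col4a1 at +0.19 ± 0.06 and +0.17 ± 0.06. The batches disagreed on the hemocyte list. In batch 1 its median was +0.19 with 11 of 13 higher, and in batch 2 −0.08 with 3 of 13 higher.

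Medians of the sensory and neural lists lay between −0.01 and +0.11. Phototransduction genes were higher in 15 of 16 (median +0.11), and 3 of the 16 had an unadjusted p under 0.05, against 8.85% of all genes. The channel gene trpl had 8.75, 8.65, 8.83 and 8.71 in P.M and 8.61, 8.41, 8.34 and 8.52 in M.M (+0.27 ± 0.07), and the eye protein kinase C gene inaC was at +0.19 ± 0.05. The G protein gene Galphaq was the exception in its brightest probe set (−0.17 ± 0.08), while its other 2 were at +0.06 and +0.21. The list's mean was 8.00 to 8.17 in P.M and 7.92 to 8.04 in M.M, so the groups overlapped, and its median was +0.19 in batch 1 and +0.06 in batch 2. Neuropeptide genes were higher in 20 of 28 (median +0.03), with Pdf, the peptide of clock neurons, at +0.19 ± 0.05. The neuropeptide median was +0.08 in batch 1 and −0.02 in batch 2. Clock genes were higher in 8 of 13 (median +0.07) and general neuronal genes in 7 of 16 (median −0.01). Odorant-binding proteins were higher in 25 of 47 (median +0.01) and odorant and gustatory receptors in 47 of 113 (median −0.01). Orco, the shared co-receptor of odorant receptors, was at −0.21 ± 0.06.

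For hormones, juvenile hormone genes were higher in 7 of 12 (median +0.02). The list's synthesis enzyme gene jhamt had 6.75, 6.80, 7.06 and 7.13 in P.M and 6.70, 6.55, 6.71 and 6.30 in M.M (+0.37 ± 0.11). Ecdysone genes were higher in 14 of 22 (median +0.02). Detoxification genes were higher in 49 of 83 cytochrome P450s (median +0.02), 20 of 34 glutathione transferases (median +0.07) and 20 of 35 UDP-glycosyltransferases (median +0.03). Zinc transporters were higher in 11 of 16 (median +0.05), and Zip102B had the lowest difference of them. Zip42C.1 was at +0.69 ± 0.19 and Zip42C.2 at +0.46 ± 0.20. Ecdysteroid kinase-like genes were higher in 28 of 42 (median +0.08) and cuticle proteins in 34 of 80 (median −0.01). Muscle genes were higher in 15 of 20 (median +0.06) with monogamous males, while with promiscuous males 17 of 20 were lower in promiscuous females (median −0.07). With monogamous males the muscle median was +0.12 in batch 1 and +0.04 in batch 2. The turn was not particular to muscle, as 49 of 64 oxidative phosphorylation genes were also lower with promiscuous males (median −0.04). Male accessory gland transcripts were higher in 14 of 28 (median 0.00) and testis transcripts in 19 of 29 (median +0.02), all at low levels.

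**Figure D3:**
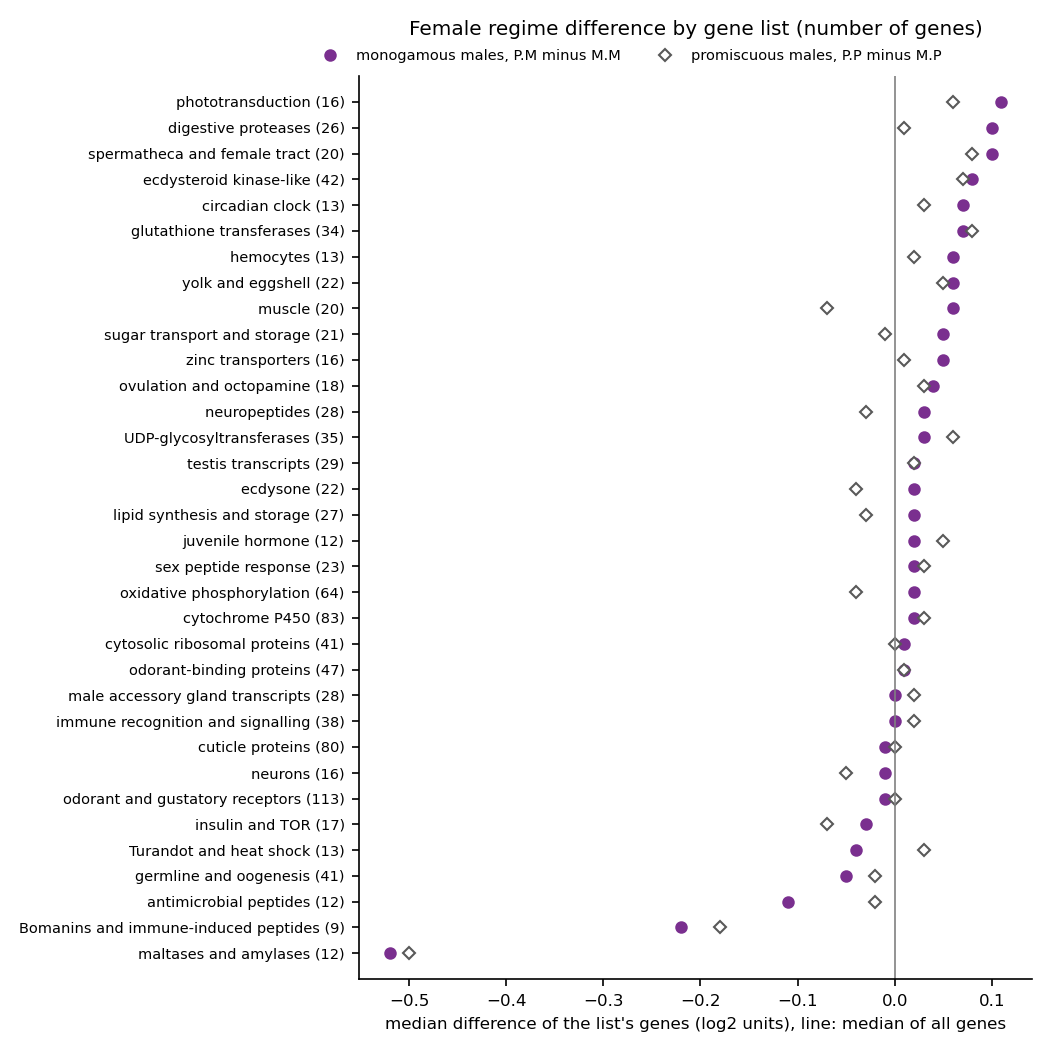
Median log2 difference of each of 34 gene lists, with the number of genes in brackets. Filled circles are P.M minus M.M and open diamonds P.P minus M.P, and the line is the median of all genes. Maltases and amylases lie at −0.52 with monogamous and −0.50 with promiscuous males, and the other lists lie between −0.22 and +0.11 with monogamous males.

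A short stretch of the X chromosome held several genes with an unadjusted p under 0.05. In the gene order of the RefSeq table for the assembly Release 6 plus ISO1 MT, CG40485 and ATbp stand 20 entries apart counting both ends, with 20 entries beyond ATbp and 2705 X entries in all. A named probe set was held by 12 of the 20, and 6 of the 12 had an unadjusted p under 0.05, against 8.85% of all genes. P.M populations were all above the M.M populations in 2 of the 12 and all below them in 1, against 3.05% and 2.09% of all genes. In FucTC, ATbp and Rab21 the groups overlapped. The stretch was chosen after the values of CG40485, CG12061 and ATbp were seen, so these counts are a description. FucTC, CG17167 and Rab21 were named for the same reason.

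CG12061 had 7.24, 8.03, 8.25 and 7.32 in P.M, against 4.67, 6.07, 5.52 and 7.08 in M.M (+1.87 ± 0.46). ATbp had 5.86, 6.12, 5.87 and 4.92 in P.M and 3.27, 4.33, 3.54 and 5.18 in M.M (+1.61 ± 0.41). FucTC, a fucosyltransferase gene, had 6.46, 6.51, 6.67 and 5.73 in P.M and 4.58, 5.41, 5.45 and 5.94 in M.M (+1.00 ± 0.29). In all 3 genes M.M4 was the highest M.M population and M.M1 the lowest. P.M4 was the lowest P.M population in FucTC and ATbp, where M.M4 exceeded it.

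CG40485 ran the opposite way, with 6.69, 6.15, 6.10 and 6.21 in P.M and 7.41, 7.05, 7.17 and 6.76 in M.M (−0.81 ± 0.16). M.M4 was again the M.M population nearest to P.M, and M.M1 the farthest. A second, dimmer probe set of CG40485 differed by +0.22, so its probe sets disagreed in sign. CG17167 was at +0.30 ± 0.06 and the small GTPase gene Rab21 at −0.12 ± 0.04. Genes between them were near 0, such as Coa7 (+0.01), CG17163 (−0.04), CG17168 (−0.02) and su(f) (+0.02), so the stretch did not move as a block. With promiscuous males the differences of CG40485, FucTC, CG12061 and ATbp were −0.93, +0.94, +2.15 and +1.62.

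The difference between female regimes had the same sign with either kind of male in all 24 leading genes, against 61.2% of all genes. The same 8 female populations gave both sets of arrays, so the 2 comparisons are not independent. With promiscuous males the difference was smaller in 21 of the 24, and its median size was 0.27 against 0.40 with monogamous males. The genes were chosen by their p with monogamous males, and a choice of this kind tends by itself to make the second value smaller. With promiscuous males, 16 of the 24 had an unadjusted p under 0.05, against 6.32% of all genes. In 10 of the 24 the groups did not overlap, and over all genes the P.P populations were all above the M.P populations in 1.88% and all below them in 1.5%. No probe set passed the adjusted test between P.P and M.P, where 1127 had an unadjusted p under 0.05.

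Single genes show both patterns. Mal-B1 had 7.37, 6.56, 5.92 and 6.34 in P.P, against 7.49, 7.55, 7.95 and 7.41 in M.P, a difference of −1.05 ± 0.27. Zip102B differed by −1.10 ± 0.14 there, close to its −1.06 with monogamous males. CG43673 differed by +0.10 ± 0.09 there, against +0.42 with monogamous males. M.P2, at 10.57, lay above 3 of the 4 P.P populations in that gene. The maltase and amylase list had a median of −0.50 with promiscuous males, with the same count of 10 of 12 lower.

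**Figure D4:**
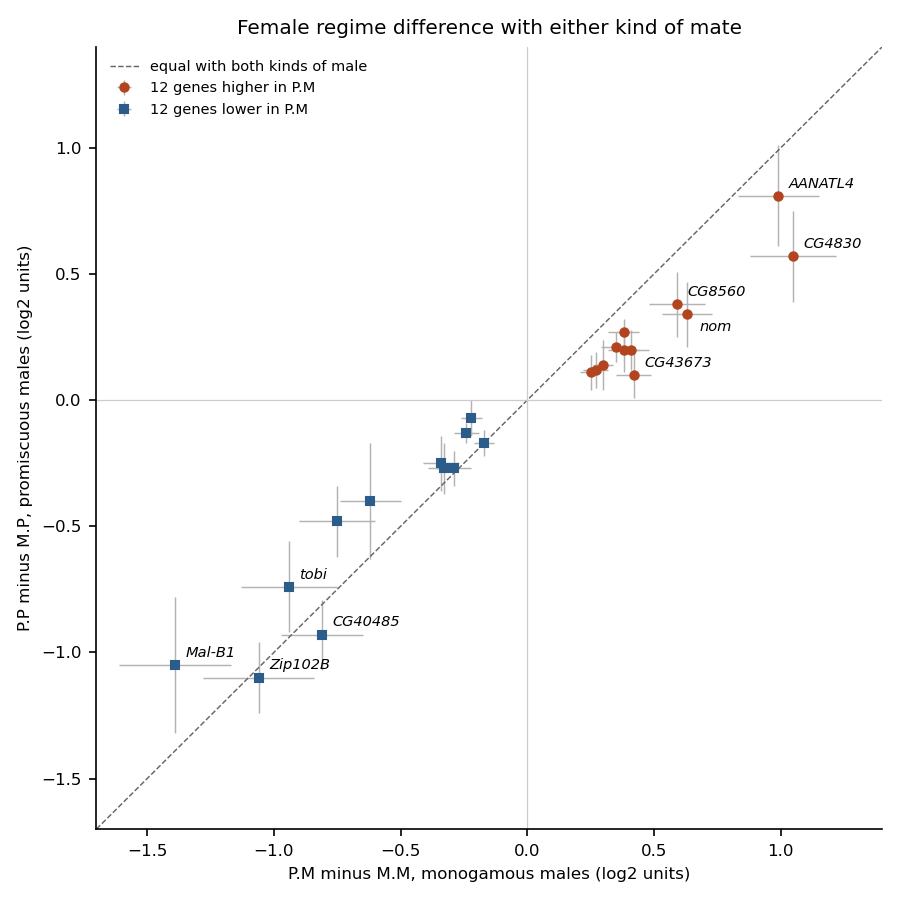
Female regime difference of the 24 leading genes with monogamous males (P.M minus M.M, horizontal) and with promiscuous males (P.P minus M.P, vertical), in log2 units with standard errors. All 24 points lie in the lower left or upper right, and 21 lie nearer to 0 on the vertical axis than on the horizontal one.

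Whether the female regime difference depended on the mate was tested within populations. For each population the level with monogamous males minus that with promiscuous males was taken, and promiscuous were compared with monogamous females. P.M and M.P females met males of another population, and P.P and M.M females met males of their own. The contrast is therefore also that of foreign against own mates, and the design cannot tell these readings apart. In limma 0 of 18769 probe sets passed (0%), with 1367 at an unadjusted p under 0.05 and a lowest adjusted p of 0.0807. The 2 genes at that value were CG4830 and GstD5. In CG4830 the level with monogamous mates minus that with promiscuous mates was 0.33, 0.34, 0.33 and 0.26 in promiscuous populations and −0.03, −0.17, −0.24 and −0.23 in monogamous ones. All promiscuous populations thus had more CG4830 with monogamous males, and all monogamous ones had less. The difference between regimes was +0.48 ± 0.06, but batch 2 alone gave −0.17.

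GstD5, a glutathione transferase gene, had −0.47, −0.25, −0.18 and −0.38 in promiscuous populations and 0.19, 0.36, 0.32 and 0.27 in monogamous ones (−0.60 ± 0.07). Promiscuous females had less of it with monogamous males and monogamous females had more. In P.M it lay at 5.01, 5.86, 4.61 and 4.68 and in M.M at 5.57, 5.18, 4.74 and 6.20, so the groups overlapped. The next genes had adjusted p of 0.661. On the higher side they were CG17027 (+0.28 ± 0.05), CG14615 (+0.31 ± 0.06), Sur, the sulfonylurea receptor gene (+0.34 ± 0.06), and bib, the neurogenic gene big brain (+0.36 ± 0.07). On the lower side they were CG5770 (−0.77 ± 0.15), CG31300 (−0.44 ± 0.10), CG5245 (−0.27 ± 0.06) and CG12898 (−0.21 ± 0.05). CG12898 lay at 3.07 to 3.36 in all crosses, near the low end of the arrays' range.

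Populations of the same regime did differ from each other. Measured against the spread between the 2 arrays of a cross, limma's moderated F test called 528 of 18769 probe sets (2.81%), or 413 of 11981 genes (3.45%), among the 4 P.M or the 4 M.M populations. The 2 arrays of a cross come from different batches and nothing in the labels says how their flies were raised, so the spread may be partly technical.

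CG6765 had 8.07, 8.38, 6.55 and 7.24 in P.M and 3.30, 8.81, 8.51 and 8.46 in M.M (populations adjusted p = 3e-06). The level in M.M1 was far below all others, and it was 3.55 when the same females mated promiscuous males. Cyp12d1-d had 8.34, 8.44, 5.53 and 8.53 in P.M and 8.64, 6.34, 3.82 and 6.87 in M.M, with number 3 lowest in both groups. RalGPS, a regulator of Ral GTPase, had 8.48, 7.30, 8.68 and 5.95 in P.M and 6.13, 9.35, 9.44 and 7.02 in M.M. CG34251 had 3.81, 4.00, 4.16 and 7.41 in P.M and 6.21, 4.26, 4.80 and 3.71 in M.M, so that a single P.M population stood out.

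CG32302 had 7.22, 7.77, 4.91 and 8.00 in P.M and 8.69, 7.31, 5.21 and 5.89 in M.M. CG2772 had 3.90, 4.46, 7.16 and 5.99 in P.M and 4.77, 4.36, 4.32 and 5.33 in M.M. In none of these 6 genes did the regimes separate. Among the named genes lower or higher by at least 1 log2 unit, populations differed in CG32751, CG12061, ATbp, Cyp12d1-d, CG2993, CG31681, Mal-A6 and Zip102B, and not at the threshold in Mal-B1, CG4830 or CG17234. Of the lists, ecdysteroid kinase-like genes had 14 of 42 called, cytochrome P450s 14 of 83, digestive proteases 7 of 26 and glutathione transferases 6 of 34, against 3.45% of all genes. Phototransduction, yolk and eggshell, muscle and oxidative phosphorylation genes had 0 called.

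**Figure D5:**
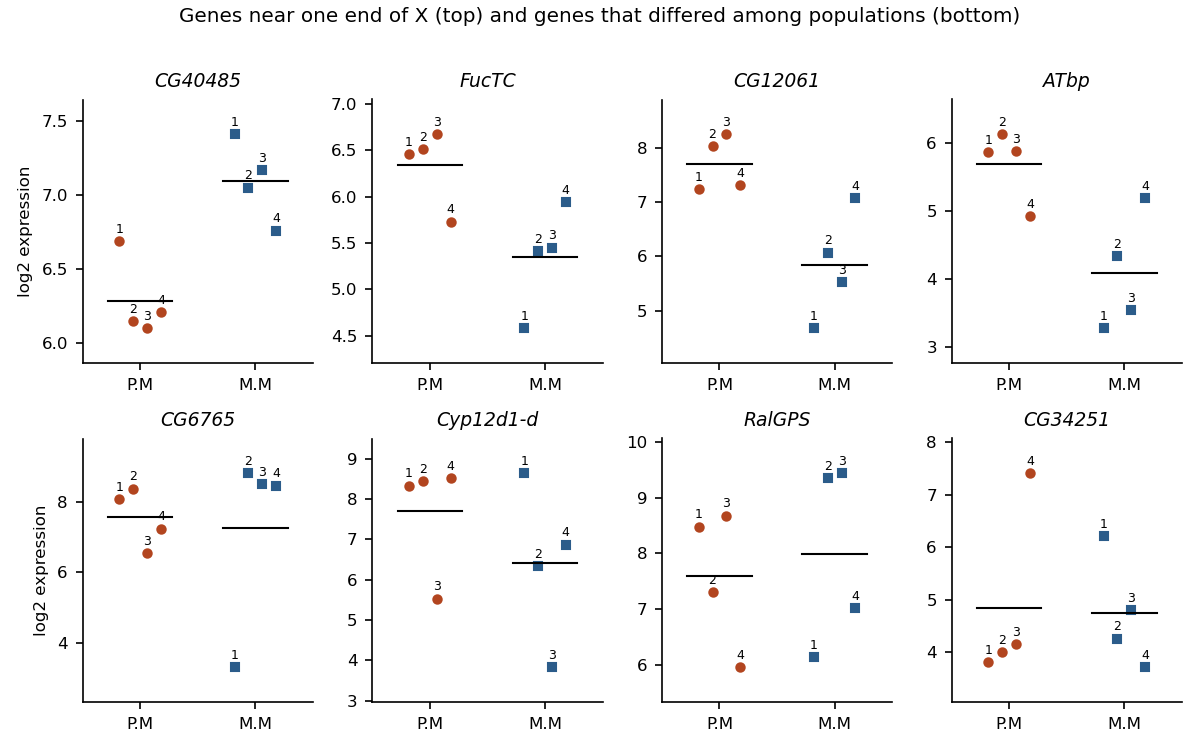
Log2 expression by female population, with P.M (circles) left and M.M (squares) right, digits for population numbers and lines for group means. The top row shows 4 genes near one end of X, where M.M4 lies nearest to P.M, and the bottom row 4 genes that differed among populations of a regime, such as CG6765 with 3.30 in M.M1.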

How the data were processed

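Per the submitters' processing notes, the deposited log2 values were made with RMA in the affy package (no version given). RMA gives all arrays one distribution of intensity, so a shift in most transcripts at once is removed. The sources used here do not say whether 1 run covered all arrays. The table holds no background measure, so no low value was called absent. Precision is limited by the number of female populations, 4 in each group.

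Of 18952 probe sets, 183 array controls were left out. The platform annotation gave 1 gene for 13646 of the others, several for 402 and none for 4721. Of the 13646, 13543 matched the RefSeq gene table, and 11981 genes remained with 1 probe set each, that with the highest mean. The 2 arrays of each cross were averaged, and limma 3.58.1 in R 4.3.3 compared 4 with 4 populations. Tests were two-sided, p was adjusted by Benjamini-Hochberg over all 18769 probe sets, and the threshold was 0.05. The fit was tested on simulated data in which all populations were independent. That test cannot show how the fit behaves where same-numbered populations resemble each other. The labels do not say whether arrays of a cross came from separate cultures. Population differences used 16 arrays with batch as a term, on 7 residual degrees of freedom. Alternatives changed the block, batch, normalization, filter, moderation and populations used.

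The members and the 34 gene lists were chosen with earlier results of these data known. The text names the 12 genes of lowest p per direction and those with at least 1 log2 unit of difference. It also names 5 per direction for the mate comparison, 6 with the widest population range, up to 4 per list, and the maltase family. Outside this rule, FucTC and the other genes of the X stretch were chosen after their values were seen.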

Additional observations from a re-analysis of the deposited data

Results flagged for a closer look

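A single population stood apart from the other 3 of its group in 18 of the 388 groups of 4 examined for the 194 named genes (4.64%; chance gives about 1 in 20). Among the genes nearest to a difference, CG4830 was lower in P.M4, at 9.17 against 9.43 to 9.46, and daw was higher in M.M3, at 7.93 against 7.80 to 7.81. In CG2993, M.M1 stood at 6.32 and the other M.M populations at 4.55 to 4.66. Among genes that differed between populations, Cyp12d1-d stood at 5.53 in P.M3 against 8.34 to 8.53, CG34251 at 7.41 in P.M4 against 3.81 to 4.16, and CG6765 at 3.30 in M.M1 against 8.46 to 8.81.

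Mal-A5 was low in P.M3, at 10.03 against 10.46 to 10.49, and Mal-A7 was low in M.M1, at 8.07 against 8.99 to 9.17. The other P.M values were 8.74 for rictor in P.M2, 6.54 for Pdf in P.M4, 7.19 for Ugt37B1 in P.M3, 6.00 for Cpr30F in P.M3, 2.83 for ProtB in P.M4 and 7.16 for Hml in P.M1. The other M.M values were 10.33 for Vm32E, 9.73 for usp and 8.74 for Rab21, all in M.M2, and 4.40 for Gr59f in M.M1.

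For 8 genes named in the comparison of mates, every promiscuous population differed one way between mates and every monogamous population the other. The adjusted test of that difference did not pass for any of them. The differences were +0.48 for CG4830, +0.28 for CG17027, +0.31 for CG14615 and +0.34 for Sur. On the lower side they were −0.60 for GstD5, −0.77 for CG5770, −0.44 for CG31300 and −0.21 for CG12898. CG12898 lay near the low end of the arrays' range. All 8 genes were chosen by the p of that test, so their signs add no support.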

How the results depend on the processing

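With the population number as a replicate block, 0 probe sets were called between P.M and M.M (1499 at an unadjusted p under 0.05). Deviations of same-numbered populations correlated at only 0.054 to 0.169, though each population correlated best with its own number. The count was also 0 in either batch alone, after cyclic loess, with a mean level of at least 6, with trended robust moderation, without moderation, and in the 8 fits without 1 population (1182 to 1574 at an unadjusted p under 0.05). It was 6 with population as a random block, 6 with arrays taken as independent, which overstates the replication, and 1 with all 4 groups in the fit. The random block, at a correlation of 0.104, shares much of that limit. The comparison of mates gave 0 in all settings tried, the replicate block included, and CG4830 turned to −0.17 in batch 2 alone. Between P.M and M.M, 1649 probe sets had an unadjusted p under 0.05 in batch 1 alone and 892 in batch 2 alone. For the comparison of mates these shares were 11.0% in batch 1 and 3.71% in batch 2. Population differences numbered 1096 with all 32 arrays. Of 444 values for 32 named genes, 438 kept their sign and side of the threshold, 6 passed with the random block and 0 reversed. Of 34 list medians, 10 changed sign in at least 1 setting. Besides the lists named above, medians above 0 in batch 1 and below 0 in batch 2 included lipid synthesis and storage (+0.05 and −0.03). Sex peptide response (+0.06 and −0.02), odorant-binding proteins (+0.08 and −0.06) and neurons (+0.04 and −0.05) were others. Two-sided exact tests of 4 against 4 populations cannot go below 0.0286.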

Other observations

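Of the cytochrome P450, glutathione transferase and UDP-glycosyltransferase genes, 8 were higher and 5 lower in promiscuous females at an unadjusted p under 0.05. The shares at that p were 6.02% of 83 cytochrome P450s, 11.8% of 34 glutathione transferases and 11.4% of 35 UDP-glycosyltransferases. These lay near the 8.85% of all genes. Over all genes 648 were higher and 412 lower at that p, and no adjusted p was under 0.05 in limma. The genes below are therefore single values and not a trait of these families. Ugt37B1, a UDP-glycosyltransferase gene, had 6.62, 6.66, 7.19 and 6.72 in P.M and 6.33, 6.27, 6.38 and 6.35 in M.M (+0.46 ± 0.11). The groups did not overlap, and P.M3 was the highest. Cyp312a1 had 5.07, 5.10, 5.16 and 4.94 in P.M and 4.87, 4.83, 4.89 and 4.76 in M.M (+0.23 ± 0.06), and with promiscuous males its difference was −0.04. GstE10, a glutathione transferase gene, was at +0.33 ± 0.10 with monogamous and +0.32 with promiscuous males. GstT4 was lower, at −0.19 ± 0.05, and every P.M population was below every M.M population. Cyp12a5, Cyp309a2, Ugt37A1 and Ugt50B3 were also lower, at −0.25 ± 0.07, −0.31 ± 0.11, −0.13 ± 0.05 and −0.20 ± 0.08.

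Secreted and chemosensory genes gave both signs. Obp19d, an odorant-binding protein gene, had 11.08, 10.93, 10.96 and 10.98 in P.M and 10.38, 10.56, 10.47 and 10.99 in M.M (+0.39 ± 0.12). Only M.M4 lay within the P.M range. Obp56g had 7.71, 7.80, 7.95 and 8.04 in P.M and 8.20, 8.03, 8.46 and 8.22 in M.M (−0.35 ± 0.10), and its difference with promiscuous males was −0.04. ETH, the ecdysis-triggering hormone gene, was at +0.42 ± 0.15, with 5.94 to 6.35 in P.M and 5.33 to 6.04 in M.M.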
